A study of Mus musculus with 8 samples.

Results

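Arginine is split by arginases into urea and ornithine, and ornithine is the substrate from which cells build the polyamines putrescine, spermidine and spermine. The same arginine can instead be used by nitric oxide synthases. The genes described here were set by a list of 10 symbols, namely the arginases Arg1 and Arg2, the inducible nitric oxide synthase Nos2, the ornithine decarboxylase Odc1 and its regulator Azin1, the polyamine synthesis genes Amd1, Srm and Sms, and the polyamine catabolism genes Sat1 and Smox. A gene was read at the probe set that carried its symbol alone and had the highest mean over all 8 arrays, so the probe sets were selected on a measured value, the mean log2 intensity, and not on the difference between genotypes. Of the 10 symbols 8 could be read, among 19938 genes in all. No probe set was paired with Amd1, and the 2 probe sets of Sms were shared with a second symbol, so both genes were left out.

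The arrays came from whole uteri of female mice on day 3.5 of pseudopregnancy, with the plug counted as day 0.5. The Foxa2-deleted group was 4 females of genotype PgrCre/+ Foxa2flox/flox, which carry loxP-flanked Foxa2 alleles and a Cre recombinase at one allele of the progesterone receptor gene Pgr, and the control group was 4 females of genotype Pgr+/+ Foxa2+/+ without Cre. Both groups had been mated to vasectomised wild-type males, a procedure that starts the hormonal programme of early pregnancy without embryos, and their ages are not stated in the labels. FOXA2 is a transcription factor of the endometrial glands, while this Cre acts in any cell that uses Pgr, and the loss of one intact Pgr allele goes with the deletion, so the effects of Foxa2, Cre and Pgr cannot be told apart. In whole tissue, fewer cells of a type and less RNA per cell cannot be told apart either.

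Polyamines bind RNA and DNA and are needed for cell growth. In the rodent uterus their synthesis through ornithine decarboxylase is known to respond to ovarian hormones and to the implanting embryo. Cells hold the pool within limits through antizymes, which inhibit and remove ornithine decarboxylase, and through acetylation and oxidation of spermidine and spermine.

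As a check of the labels, the Foxa2 probe set read between 8.20 and 8.22 (log2 intensity) in Foxa2-deleted uteri and between 8.61 and 8.82 in control uteri. Pgr, at which the Cre is inserted, read between 11.35 and 11.81 in Foxa2-deleted uteri and between 11.15 and 11.27 in control uteri, with no overlap and a log2 change of 0.37, and whether its probe set reads the allele with Cre is not known. Array medians lay between 8.25 and 8.29 in Foxa2-deleted uteri and between 8.29 and 8.32 in control uteri. All 9 genes fixed as defining for the uterus were read, and their mean lay between 10.78 and 11.05 in Foxa2-deleted uteri and between 10.89 and 10.97 in control uteri. At an adjusted p under 0.05 (limma) 3 of them were higher and none lower, beside 4.5% and 6.58% of all genes. Their log2 changes ran from -0.645 for Msx1 to 0.93 for Krt8, so the mean holds changes of both signs. The Foxa2-deleted uteri differed among themselves. When each was projected, over all genes, onto the average difference of the remaining 3 from the controls, replicates 1 to 4 reached 0.946, 0.561, 1.38 and 0.756 of that difference, so replicate 2 stood nearest the controls and replicate 3 farthest from them.

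Arg1 stood far higher in Foxa2-deleted uteri. Its increase was known from earlier results of these data when the list was drawn up, so it is described here and supports nothing, and none of the other 7 measured genes passed the threshold, an adjusted p under 0.05 over all 19938 genes (limma). Of all genes tested 4.5% were higher at that threshold, 6.58% lower and 11.1% changed in either direction, so the 1 of 8 (12.5%), Arg1 itself, is close to the background and says nothing about the genes as a group. Their median log2 change was 0.14, against 0.01 over all genes, and their changes ran from -0.54 for Arg2 to 3.13 for Arg1. The 4 values of one group lay apart from the 4 of the other in 1 of the 8 genes, and in 21.1% of all genes. At an unadjusted p under 0.05 (limma) stood 4 of the 8, Arg1, Arg2, Nos2 and Sat1, against 31.5% of all genes.

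**Figure D1:**
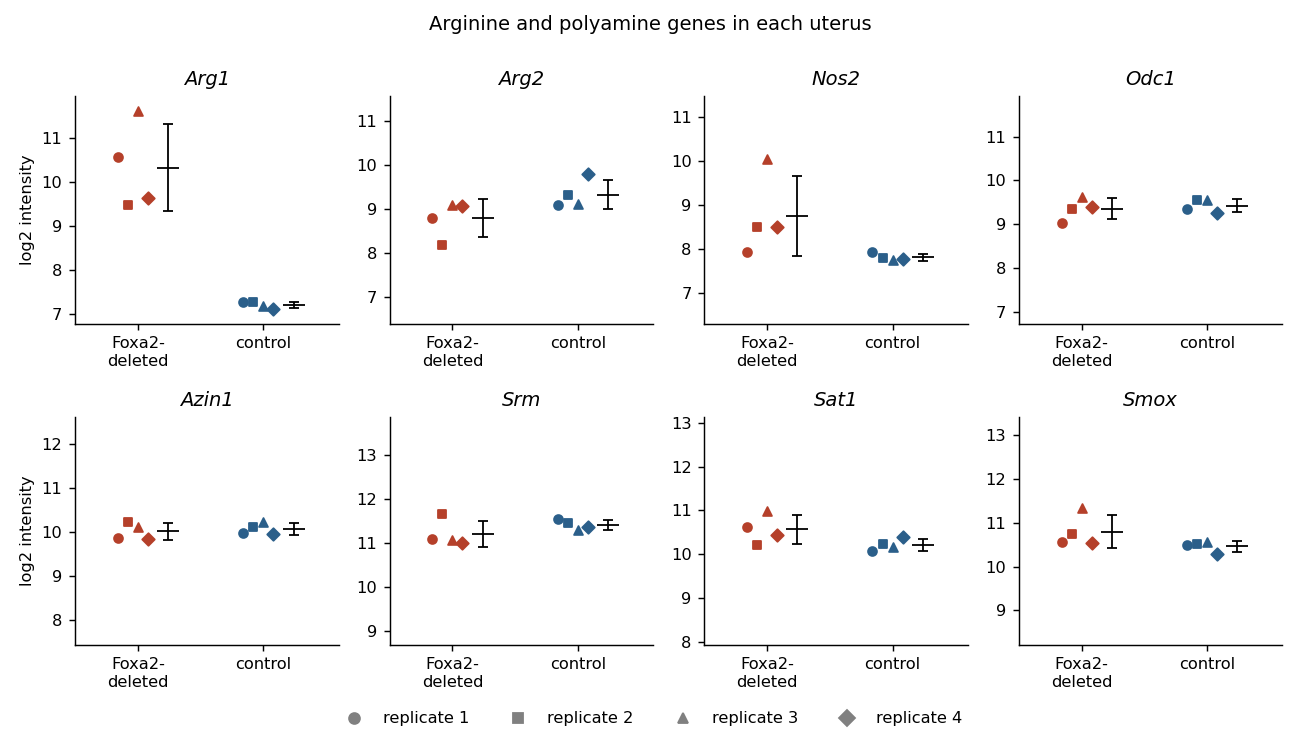
Log2 intensity (vertical axes, each spanning the same number of log2 units) of the 8 measured genes in each uterus, Foxa2-deleted left and control right, with 1 point per animal and its replicate shown by shape. Black bars give the mean and SD of 4 animals, and Arg1 is the gene whose 2 groups do not overlap, with Foxa2-deleted uteri from 9.48 to 11.63 and controls from 7.11 to 7.26.

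Arg1 encodes the cytosolic arginase of the hepatic urea cycle, which is also made in some macrophages and epithelia. It read 10.58, 9.48, 11.63 and 9.64 (log2 intensity, replicates 1 to 4) in Foxa2-deleted uteri, against 7.26, 7.26, 7.17 and 7.11 in control uteri. Each Foxa2-deleted uterus lay above each control, and the lowest of them, replicate 2, was still over 2 log2 units above the highest control. The means were 10.33 ± 0.99 in Foxa2-deleted uteri and 7.20 ± 0.07 in control uteri (SD, n = 4 each), a log2 change of 3.13 (SE 0.41), or 8.77-fold. This placed Arg1 at rank 10 among increases over all genes. With each array left out in turn the log2 change ran from 2.70, without Foxa2-deleted replicate 3, to 3.42, without Foxa2-deleted replicate 2. Among Foxa2-deleted uteri the order of Arg1, with replicate 3 highest, then 1, 4 and 2, was the order of the whole-transcriptome projection.

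Arg2 encodes the mitochondrial arginase, which is made in many tissues outside the liver. It read 8.80, 8.17, 9.10 and 9.07 in Foxa2-deleted uteri, against 9.09, 9.32, 9.11 and 9.79 in control uteri. Replicate 2 was the lowest Foxa2-deleted uterus, and the groups overlapped only in that replicate 3 lay just above the lowest control. The log2 change of -0.54 (SE 0.23) did not pass (adjusted p = 0.140, limma, n = 4 each). Without Foxa2-deleted replicate 2 the log2 change was -0.34 (SE 0.17), and its adjusted p over the alternatives ranged from 0.0788 to 0.301.

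Nos2 encodes the inducible nitric oxide synthase, the enzyme that competes with arginases for arginine in activated macrophages. It read 7.92, 8.50, 10.05 and 8.50 in Foxa2-deleted uteri, against 7.93, 7.80, 7.75 and 7.78 in control uteri. Replicate 3 stood high, replicates 2 and 4 lay above every control, and replicate 1 lay within the range of the controls. The log2 change was 0.93 (SE 0.38, adjusted p = 0.135, limma) and without Foxa2-deleted replicate 3 it was 0.49 (SE 0.14, adjusted p = 0.0607, limma).

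Both Arg1 and Nos2 can be made by myeloid cells, and Arg1 also by keratinised epithelium. Markers were counted at the same adjusted p under 0.05 (limma), which 4.5% of all genes passed as higher and 6.58% as lower. Of 13 macrophage markers measured 1, Cd163, was higher (log2 change 0.25, adjusted p = 0.049, limma) and none lower. Their log2 changes went both ways, from -0.40 for Adgre1 to 0.47 for Chil3, with a median of 0.04. The list's mean level lay between 9.49 and 9.87 in Foxa2-deleted uteri and between 9.50 and 9.81 in control uteri. Of 12 neutrophil markers 2 were higher, the chemokine receptor gene Cxcr2 (log2 change 2.33, SE 0.43, adjusted p = 0.015, limma) and the surface marker Ly6g (log2 change 1.21, SE 0.25, adjusted p = 0.021, limma), and none lower. The neutrophil mean was 7.85, 7.78, 8.64 and 7.76 in Foxa2-deleted uteri and between 7.24 and 7.43 in control uteri. Its highest array, replicate 3, was also the highest for Nos2 and Arg1. Among Foxa2-deleted uteri, replicate 3 was likewise the highest for the macrophage, stratified squamous, pan-epithelial and gland means. It also stood farthest from the controls over all genes, though its gland mean, 7.96, was the one nearest the controls. The match is therefore not particular to neutrophils. Of 14 stratified squamous markers 4 were higher, none lower, and 10 did not pass. The 4 had log2 changes from 0.215 for Krt4 to 0.43 for Krt13, and control means of 7.70 or less. The list's means lay between 7.23 and 7.40 in Foxa2-deleted uteri and between 7.12 and 7.21 in control uteri. Of 12 pan-epithelial markers 5 were higher and none lower, with means between 10.34 and 11.26 in Foxa2-deleted uteri and between 9.87 and 10.08 in control uteri. Of 10 endometrial gland markers, Foxa2 itself among them, 5 were lower and none higher, with means between 7.56 and 7.96 in Foxa2-deleted uteri and between 8.72 and 9.21 in control uteri. Of 10 NK and T cell markers 8 were lower and none higher, with means between 7.77 and 8.22 in Foxa2-deleted uteri and between 8.70 and 8.88 in control uteri. Of 6 adipocyte markers 1, Fabp4, was higher and none lower, and their means overlapped, at 9.61, 10.80, 10.28 and 10.62 in Foxa2-deleted uteri and at 10.23, 9.66, 8.52 and 8.68 in control uteri. The part of these cells in the Arg1 and Nos2 values was not tested.

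Over the 8 arrays, the 5 genes whose values lay nearest to those of Arg1, each gene centred on its control mean, were Alpl, Oxtr, Tmprss11d, Slc34a2 and Sprr2f. Their root mean square difference from Arg1 was 0.32, 0.35, 0.35, 0.41 and 0.41 log2 units. They encode an alkaline phosphatase, the oxytocin receptor, a membrane serine protease, a phosphate transporter and a small proline-rich protein. Alpl read 10.83, 10.92, 12.36 and 10.75 in Foxa2-deleted uteri, against 8.24, 8.13, 8.06 and 8.14 in control uteri. Oxtr read 11.26, 10.15, 11.80 and 10.08 in Foxa2-deleted uteri, against 8.30, 8.10, 8.01 and 8.10 in control uteri, with the replicates high and low in nearly the order of Arg1. Likeness here is a description of 8 arrays in 2 groups and was not tested.

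**Figure D2:**
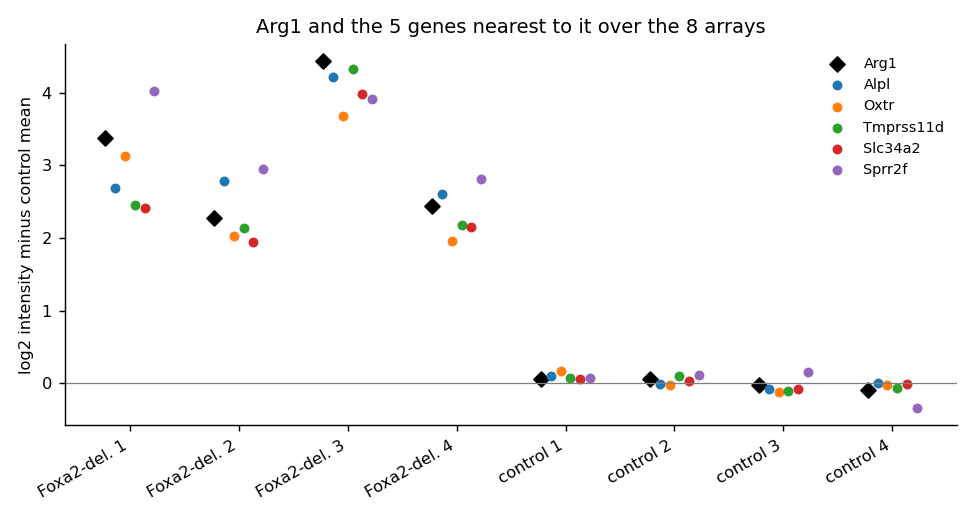
Log2 intensity minus each gene's own control mean (vertical axis) for Arg1 (black diamonds) and the 5 genes nearest to it, in the 4 Foxa2-deleted uteri (left) and the 4 controls (right), 1 point per array. In Foxa2-deleted replicate 3 Arg1 was highest, at 11.63 before centring, and all 5 other genes lay well above 0 in every Foxa2-deleted uterus.

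Odc1 encodes ornithine decarboxylase, which makes putrescine and is the rate-limiting step of the pathway. It read 9.04, 9.34, 9.62 and 9.40 in Foxa2-deleted uteri, against 9.35, 9.55, 9.56 and 9.25 in control uteri. The groups overlapped throughout, and the log2 change was -0.08 (SE 0.12, adjusted p = 0.688, limma). A second probe set with the same symbol read 9.30, 9.32, 9.64 and 9.28 in Foxa2-deleted uteri, against 9.06, 9.36, 9.25 and 9.06 in control uteri, and its change had the other sign, 0.20 (SE 0.10, adjusted p = 0.232 in the limma fit over all probe sets). Neither passed, so a direction for Odc1 was not resolved.

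Azin1 encodes the antizyme inhibitor, a relative of ornithine decarboxylase without its activity that binds antizyme and so spares the enzyme. It read 9.87, 10.23, 10.12 and 9.84 in Foxa2-deleted uteri, against 9.97, 10.12, 10.23 and 9.95 in control uteri. The values interleaved, with a log2 change of -0.05 (SE 0.10, adjusted p = 0.747, limma). Of 4 further symbols listed for antizymes and their inhibitors 3 were read, the antizyme genes Oaz2 and Oaz3 and the second antizyme inhibitor gene Azin2. The antizyme gene Oaz1 was not among them. None of the 3 passed (limma), and 0 had an unadjusted p under 0.05. Their log2 changes were -0.12 (SE 0.07), 0.13 (SE 0.07) and 0.08 (SE 0.06).

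Srm encodes spermidine synthase, which turns putrescine into spermidine. It read 11.09, 11.66, 11.07 and 11.00 in Foxa2-deleted uteri, against 11.55, 11.45, 11.29 and 11.37 in control uteri. Replicates 1, 3 and 4 lay below every control, while replicate 2 lay above every control. Over all arrays the log2 change was -0.21 (SE 0.14, adjusted p = 0.324, limma), and without Foxa2-deleted replicate 2 it was -0.36 (SE 0.07, adjusted p = 0.013, limma). Without any other single array Srm did not pass, with adjusted p from 0.345 to 0.505 (limma).

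Sat1 encodes the spermidine and spermine acetyltransferase that starts polyamine breakdown and export. It read 10.63, 10.21, 10.99 and 10.44 in Foxa2-deleted uteri, against 10.08, 10.23, 10.16 and 10.39 in control uteri. Replicates 1, 3 and 4 lay above every control, and replicate 2 lay among them. The log2 change was 0.35 (SE 0.15, adjusted p = 0.148, limma) over all arrays and 0.47 (SE 0.13, adjusted p = 0.047, limma) without Foxa2-deleted replicate 2. Without Foxa2-deleted replicate 3 it was 0.21, with an adjusted p of 0.238 (limma).

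Smox encodes spermine oxidase, which turns spermine back into spermidine. It read 10.57, 10.75, 11.34 and 10.53 in Foxa2-deleted uteri, against 10.48, 10.51, 10.56 and 10.29 in control uteri. Replicate 3 stood high and replicate 4 lay within the control range. The log2 change was 0.34 (SE 0.17, adjusted p = 0.196, limma), and without Foxa2-deleted replicate 3 it was 0.16. Smox is the one gene of the 8 on the chromosome of Foxa2, chromosome 2, where 77 positions separate them in the order of the genes tested.

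The rest of the pathway was read from lists of 60 symbols in 9 groups, with an older and a newer name of 1 gene among them, of which 50 were measured. Of these 2 were higher and 4 lower, and 44 did not pass. The share that passed, 12%, is close to the 11.1% of all genes, and the median log2 change was 0.03. At an unadjusted p under 0.05 (limma) stood 14 of the 50, or 28%, against 31.5% of all genes. Such counts in the lists below are therefore no result about the lists. The genes that changed were the arginine transporter gene Slc7a2, the endothelial nitric oxide synthase gene Nos3, the methylarginine hydrolase gene Ddah1 and the methionine salvage gene Mri1, all lower, and the diamine oxidase gene Aoc1 and the aspartate aminotransferase gene Got1, both higher.

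**Figure D3:**
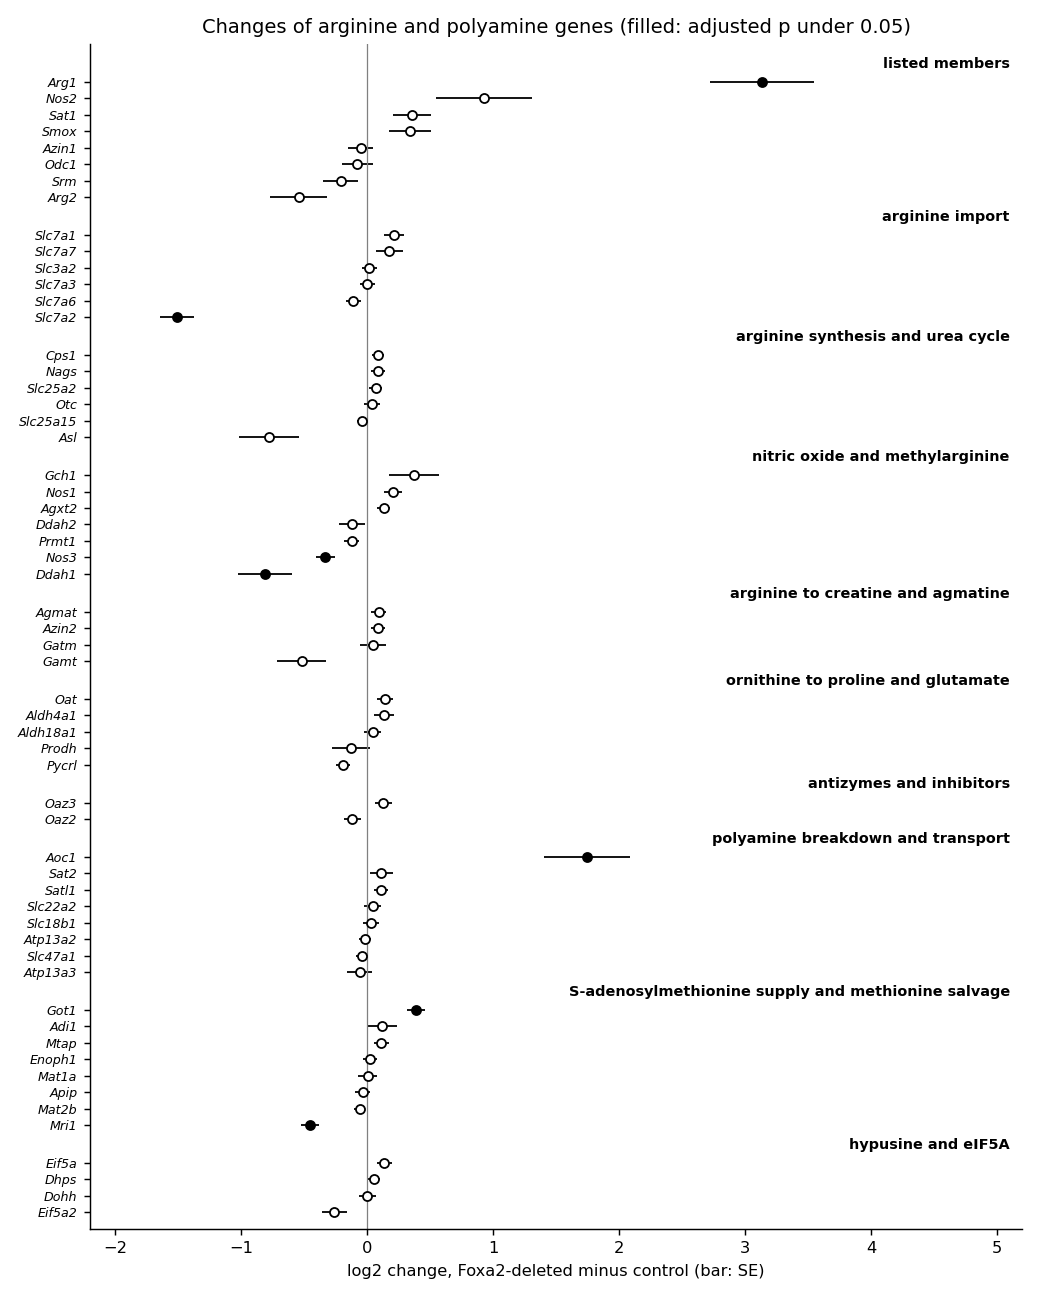
Log2 change, Foxa2-deleted minus control, with its SE (horizontal axis) for the 8 measured genes and the 50 further pathway genes by group, each gene drawn once, with filled points for an adjusted p under 0.05. Arg1 at 3.13 and Aoc1 at 1.75 stand to the right, Slc7a2 at -1.51 to the left, and most other points lie near 0.

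Slc7a2 encodes the cationic amino acid transporter CAT2, which brings arginine into cells. It read 9.07, 9.02, 8.39 and 8.87 in Foxa2-deleted uteri, against 10.37, 10.31, 10.41 and 10.31 in control uteri. All Foxa2-deleted uteri, replicate 2 included, lay more than 1 log2 unit below every control. With a log2 change of -1.51 (SE 0.13, adjusted p = 7.9e-04, limma) it was 2.85-fold lower and fell to 8.84 ± 0.31 in Foxa2-deleted uteri, against 10.35 ± 0.05 in control uteri (SD, n = 4 each). The other 5 genes grouped with it for arginine transport, Slc7a1, Slc7a3, Slc7a6, Slc7a7 and Slc3a2, did not pass, with log2 changes from -0.11 for Slc7a6 to 0.21 for Slc7a1.

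Of the 6 genes of arginine synthesis and the urea cycle none passed (limma), and 1, Asl, had an unadjusted p under 0.05. Asl encodes argininosuccinate lyase, which releases arginine. It read 8.88, 10.13, 8.98 and 9.17 in Foxa2-deleted uteri, against 10.03, 10.15, 10.01 and 10.09 in control uteri. Replicate 2 matched the controls and the other Foxa2-deleted uteri lay well below them. Its log2 change was -0.78 (SE 0.24, adjusted p = 0.068, limma) over all arrays and -1.06 (SE 0.08, adjusted p = 2.1e-04, limma) without Foxa2-deleted replicate 2. Without any other single array Asl did not pass, with adjusted p from 0.0968 to 0.154 (limma). The urea cycle gene Cps1, which encodes carbamoyl phosphate synthetase, had the next smallest p of the list (log2 change 0.09, SE 0.05, adjusted p = 0.240, limma).

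Of 7 genes of nitric oxide and methylarginine metabolism 2 were lower and 5 did not pass. Ddah1 encodes an enzyme that breaks down methylarginines, which inhibit nitric oxide synthases. It read 8.96, 9.99, 9.03 and 8.99 in Foxa2-deleted uteri, against 10.01, 10.18, 9.89 and 10.13 in control uteri. Replicate 2 again lay with the controls. It fell by 0.81 (SE 0.22, adjusted p = 0.046, limma), and without Foxa2-deleted replicate 2 it fell by 1.06 (SE 0.07, adjusted p = 2.0e-04, limma). The call of Ddah1 was lost without any other single array, with adjusted p from 0.0698 to 0.121 (limma).

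Nos3 encodes the nitric oxide synthase of endothelium. It read 9.03, 9.18, 8.91 and 8.99 in Foxa2-deleted uteri, against 9.38, 9.46, 9.21 and 9.39 in control uteri. The groups did not overlap, with the highest Foxa2-deleted uterus just below the lowest control. It fell by 0.33 (SE 0.07, adjusted p = 0.026, limma). Its call was lost without Foxa2-deleted replicate 1 or control replicate 1, 2 or 4, with adjusted p up to 0.082 (limma). Of 10 endothelial markers 6 were lower and none higher, beside 6.58% of all genes lower and 4.5% higher. Their means lay between 9.70 and 10.34 in Foxa2-deleted uteri and between 10.59 and 10.65 in control uteri. The part of endothelial cells in the Nos3 value was not tested.

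**Figure D4:**
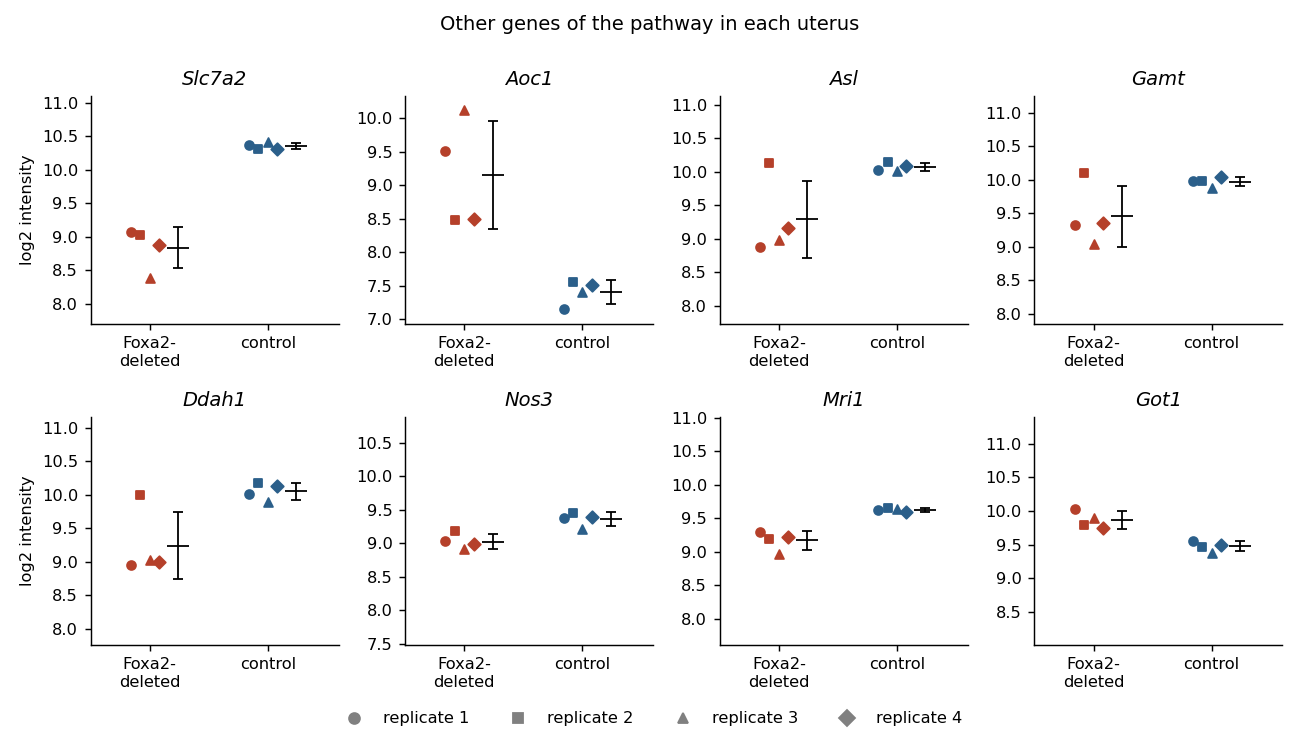
Log2 intensity (vertical axes, each spanning the same number of log2 units) of 8 further genes of the pathway in each uterus, Foxa2-deleted left and control right, with the replicate shown by shape and black bars for the mean and SD of 4 animals. Slc7a2 is separated in all uteri, with Foxa2-deleted uteri at 9.07 or less and controls at 10.31 or more, while in Asl, Gamt and Ddah1 Foxa2-deleted replicate 2 (square) lies beside the controls.

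Of the 4 genes listed for creatine and agmatine, Gatm, Gamt, Agmat and the antizyme inhibitor gene Azin2 given above, none passed (limma). Of them 1, Gamt, had an unadjusted p under 0.05. Gamt, which encodes the methyltransferase that completes creatine, read 9.32, 10.11, 9.04 and 9.35 in Foxa2-deleted uteri, against 9.99, 9.99, 9.88 and 10.04 in control uteri. Here too replicate 2 lay with the controls and the other 3 Foxa2-deleted uteri below them. Its log2 change was -0.52 (SE 0.19, adjusted p = 0.109, limma) over all arrays and -0.74 (SE 0.08, adjusted p = 0.0015, limma) without Foxa2-deleted replicate 2. Without any other single array Gamt did not pass, with adjusted p from 0.153 to 0.217 (limma). None of the 5 measured genes that connect ornithine with proline and glutamate passed (limma), with 1, Pycrl, at an unadjusted p under 0.05. Pycrl, which encodes a pyrroline carboxylate reductase, had a log2 change of -0.19 (SE 0.06, adjusted p = 0.063, limma), and the ornithine aminotransferase gene Oat one of 0.14 (SE 0.07, adjusted p = 0.174, limma).

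Of the 8 genes of polyamine breakdown and transport that were read, 1 was higher and 7 did not pass. Aoc1 encodes diamine oxidase, a copper enzyme that oxidises putrescine and histamine outside cells. It read 9.51, 8.49, 10.12 and 8.50 in Foxa2-deleted uteri, against 7.15, 7.56, 7.41 and 7.52 in control uteri. Each Foxa2-deleted uterus lay above each control, with replicates 1 and 3 the highest, as for Arg1. It rose by 1.75 (SE 0.34, adjusted p = 0.019, limma), or 3.35-fold, to 9.16 ± 0.80 in Foxa2-deleted uteri, against 7.41 ± 0.18 in control uteri (SD, n = 4 each). Its call was lost without any 1 control, with adjusted p from 0.0511 to 0.0587 (limma), while the log2 change stayed between 1.42 and 1.97 with each array left out in turn. The other 7 genes, among them the lysosomal polyamine transporter gene Atp13a2 and the acetyltransferase relative Sat2, had log2 changes from -0.06 for Atp13a3 to 0.11 for Sat2.

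The sequence before the start sites is shown for Aoc1, the gene of polyamine breakdown that rose, and for Odc1, the entry step, for which no change was resolved. The table of RefSeq promoters (GRCm38.p6) held 9 of the 16 genes looked up, the 10 listed symbols and the 6 further pathway genes that passed. Each window is the 250 bases before a start site, 5′ to 3′ on the strand of the gene, and capitals mark a match to a motif searched. The 2 start sites of Aoc1 lie on the plus strand, at chr6:48895005-48895254 and chr6:48904736-48904985, and that of Odc1 on the plus strand at chr12:17544623-17544872.
Aoc1, first start site: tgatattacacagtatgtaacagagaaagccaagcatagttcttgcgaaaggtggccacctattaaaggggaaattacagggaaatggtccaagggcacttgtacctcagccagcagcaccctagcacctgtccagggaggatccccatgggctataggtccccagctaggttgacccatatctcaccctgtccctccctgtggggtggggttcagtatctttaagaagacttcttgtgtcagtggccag
Aoc1, second start site: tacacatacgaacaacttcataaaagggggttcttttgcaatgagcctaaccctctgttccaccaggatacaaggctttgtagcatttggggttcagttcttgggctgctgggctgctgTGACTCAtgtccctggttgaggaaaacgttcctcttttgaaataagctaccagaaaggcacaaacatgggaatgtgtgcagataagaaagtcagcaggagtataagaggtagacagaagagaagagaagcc
Odc1: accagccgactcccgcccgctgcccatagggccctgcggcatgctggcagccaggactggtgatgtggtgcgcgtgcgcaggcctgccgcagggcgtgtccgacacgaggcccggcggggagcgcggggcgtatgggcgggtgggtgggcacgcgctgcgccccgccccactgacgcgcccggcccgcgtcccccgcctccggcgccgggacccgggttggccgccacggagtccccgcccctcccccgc
Searched on both strands were the forkhead motif TGTTTAC, the E-box CACGTG, the AP-1 motif TGANTCA, the TATA motif TATAAA and the estrogen response element. None of these overlapped in the windows printed, and the one match was the AP-1 motif in the second Aoc1 window, whose first base lies at -131 from the start. Of all 32851 windows of this length 3.17% held the forkhead motif, 6.02% the E-box, 6.75% the AP-1 motif, 12.4% the TATA motif and 0.0639% the estrogen response element. G and C made up 51.2% and 45.6% of the Aoc1 windows and 80% of the Odc1 window. A match is a run of letters and not a measured site.

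Of 8 measured genes that supply S-adenosylmethionine or salvage methionine from it, 1 was higher and 1 lower. Spermidine and spermine synthesis releases methylthioadenosine, which this salvage route returns to methionine. Mri1, which encodes an isomerase of the route, read 9.30, 9.19, 8.97 and 9.22 in Foxa2-deleted uteri, against 9.62, 9.65, 9.64 and 9.59 in control uteri. The groups did not overlap, and replicate 2 lay with its own group. It fell by 0.46 (SE 0.07, adjusted p = 0.0084, limma). Got1, whose enzyme can take part in the last step of the route besides its role in aspartate metabolism, read 10.03, 9.79, 9.90 and 9.74 in Foxa2-deleted uteri, against 9.55, 9.47, 9.38 and 9.50 in control uteri. It rose by 0.39 (SE 0.07, adjusted p = 0.015, limma), with no overlap, and omitting control replicate 2 or 3 ended the call (adjusted p of 0.052 and 0.051, limma).

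Spermidine also supplies the side chain of hypusine, an amino acid found only in the translation factor eIF5A. None of the 4 genes of this group passed (limma), and 2, Eif5a and Eif5a2, had an unadjusted p under 0.05, beside 31.5% of all genes. Eif5a had a log2 change of 0.14 (SE 0.06, adjusted p = 0.152, limma) and its relative Eif5a2 one of -0.26 (SE 0.10, adjusted p = 0.113, limma). The hypusine-forming enzymes Dhps and Dohh had log2 changes of 0.05 and 0.

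Foxa2-deleted replicate 2 was the only array whose omission changed the count of listed genes that passed. Without it 3 of the 8 measured genes passed, Arg1 and Sat1 higher and Srm lower, and 10 of the 50 further pathway genes, 2 higher and 8 lower. Over all genes 2947 then passed, or 14.8%. The 4 further pathway genes that passed in addition were Asl, Gamt, Pycrl and Eif5a2, all lower. Without Foxa2-deleted replicate 4, 3059 genes passed, or 15.3%, with 1 listed gene and 5 of the 50. Each array was left out in turn, and replicate 2 is singled out here for its effect on these counts. Leaving out an array that departs from its group lowers the SE, so the counts and p-values without replicate 2 are a description and no result. In Srm, Asl, Gamt, Eif5a2 and Sat1 replicate 2 lay inside or beyond the control range on the far side from the other Foxa2-deleted uteri. Foxa2 read 8.22, 8.20, 8.21 and 8.21 in replicates 1 to 4, and whether the deletion was equally complete in them was not tested. Without control replicates 1 to 4 in turn the number of the 50 that passed was 3, 2, 3 and 3, beside 5.57%, 2.79%, 3.1% and 2.79% of all genes, so these counts are no result about the 50.

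**Figure D5:**
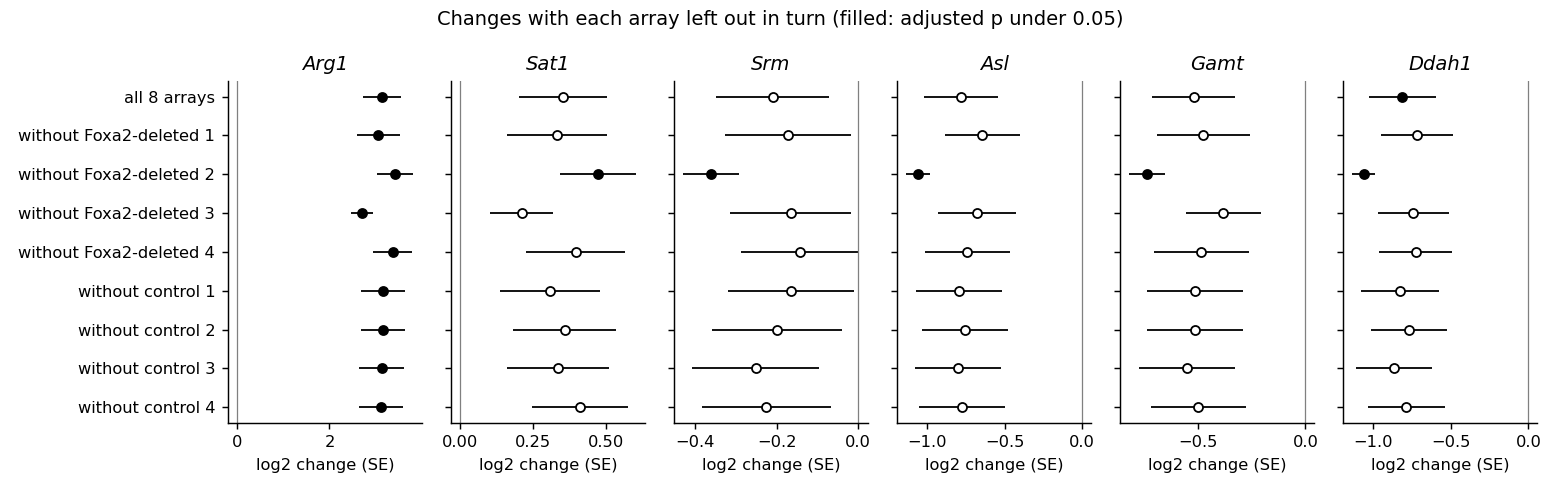
Log2 change, Foxa2-deleted minus control, with its SE (horizontal axes, each with its own range) for 6 genes over all 8 arrays and with each array left out in turn (rows), with filled points for an adjusted p under 0.05. The change of Arg1, which was known beforehand and is drawn as a description, lies between 2.70 and 3.42, while Sat1, Srm, Asl and Gamt pass it only without Foxa2-deleted replicate 2 among these rows.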

How the data were processed

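Total RNA (150 ng) from each of 8 uteri was labelled and put on 1 Affymetrix array of its own, per the labels' protocols. The values are the authors' deposited log2 intensities, made with RMA, per the submitters' processing notes, which also name limma. Versions, build and annotation were not given in the labels. RMA compresses changes of dim genes, no detection calls come with the values, and precision is limited by having 4 arrays in a group.

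Of 35556 probe sets, 21789 carried 1 symbol in GEO's platform annotation, 1621 several and 12146 none. Genes with more than 1 probe set (999) were read at the one with the highest mean, which left 19938 genes. Levels of different probe sets were not set against each other. Foxa2-deleted and control arrays were compared with lmFit and eBayes (limma 3.58.1, R 4.3.3), with 1 genotype term, Benjamini-Hochberg adjustment over all genes, and a threshold of 0.05. Errors are the fit's SE, or SD over 4 animals, called biological replicates in the titles. The fit was also run on simulated data that gave both groups the same SD in each gene. These data differ from that, as 70.3% of genes had the larger SD in Foxa2-deleted uteri, so the fit was not tested under such spread. Names and gene order came from RefSeq genes of GRCm38.p6.

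The members and gene lists were chosen with earlier results of these data known, and lists are described by counts and medians only. Named were all measured members, the pathway genes that passed (or up to 2 with the smallest p in a list where none did), the 5 genes nearest to Arg1, Foxa2, and marker genes with the smallest adjusted p. Names outside this rule (ends of a range, remaining list members, genes that passed on leaving out 1 array) were chosen after their values were seen. Alternatives were 3 scalings, 2 filters, 2 uses of the probe sets, 2 variance models, a block on the replicate number and leaving out each array.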

Additional observations from a re-analysis of the deposited data

Results flagged for a closer look

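Among 30 genes named, each with 2 groups of 4 arrays, 5 groups held an array farther from the rest than Dixon's test allows at 95%. Chance flags about 1 in 20 groups only where they are independent and not picked on their values. Here the same 8 arrays recur, and Alpl, Tmprss11d and Sprr2f were picked for likeness to Arg1, so the count is a description. In Foxa2-deleted replicate 2, Srm stood at 11.66 against 11.00 to 11.09 on the other Foxa2-deleted arrays, and Ddah1 at 9.99 against 8.96 to 9.03. In Foxa2-deleted replicate 3, Alpl stood at 12.36 against 10.75 to 10.92, and Tmprss11d at 10.15 against 7.96 to 8.28. In control replicate 4, Sprr2f stood at 7.55 against 7.96 to 8.04 on the other controls.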

How the results depend on the processing

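The log2 change of Arg1, a description, ran from 2.70 to 3.42 over the 18 alternatives. The calls of Slc7a2 and Mri1 held under all 18. With each array left out in turn, the number of genes that passed ran from 556 to 3059 (2209 with all arrays), of those changed at least 1.5-fold from 270 to 966 (653 with all arrays), of the listed members from 1 to 3 and of the further pathway genes from 2 to 10. With a replicate block 1062 genes passed, and 1 member and 6 pathway genes as without it. Same-numbered arrays did not deviate together (correlations across genes of 0.0568, -0.0506, -0.0261 and -0.00882), which cannot exclude a pairing. The labels do not say that the numbers pair animals, so none was assumed. The sign of Odc1 turned with the mean of its 2 probe sets (0.0625) and without Foxa2-deleted replicate 1 (0.0258; range over arrays left out -0.17 to 0.0258). That of Azin1 turned without Foxa2-deleted replicate 4 (0.0058) or control replicate 3 (0.0017; range -0.12 to 0.0058), and the cause was not tested. Ddah1 also lost its call under repeated quantile normalisation, cyclic loess, all probe sets and a trended robust prior, with adjusted p (limma) from 0.053 to 0.060. Asl passed with array weights (adjusted p = 0.039, limma). Nos2, Aoc1 and other dimmer genes were not tested with the dimmer 50% of genes left out. The median change of all genes was 0.0075 with the deposited values and between -0.00266 and 0.03 under the 3 other scalings. The calls split into 898 higher and 1311 lower with the deposited values, and into 1094 higher and 1106 lower with each array centred on its median.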
